A study of Mus musculus with 2 samples.

Results

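Voltage-gated calcium channel genes were measured in RNA bound to tagged ribosomes from the ventral striatum. The set holds 10 genes taken by name: 8 that encode pore-forming subunits (Cacna1a, Cacna1b, Cacna1c, Cacna1d, Cacna1e, Cacna1g, Cacna1h and Cacna1i) and 2 that encode auxiliary subunits (Cacnb4 and Cacna2d3). All 10 were found among the 32531 gene symbols counted. Both libraries came from adult mice of the animal line Stard5-TRAP JX5852, titled Stard5-EGFP/Rpl10a-JX5852, in which cells that use Stard5 regulatory sequence carry the ribosomal protein Rpl10a fused to EGFP, a green fluorescent protein. The mice were untreated controls, and the libraries, replicate 1 and replicate 2, hold RNA pulled down with antibodies to EGFP and form the only group. The labels do not say how many animals went into each library or whether the replicates were separate animals, so their spread may be only technical. No input RNA, other line or treatment was analysed here, so levels and their spread are reported, with no enrichment over the tissue.

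The libraries held 25830282 and 29574781 reads in genes in replicates 1 and 2. Levels are in CPM, reads per 1000000 reads in genes. Detection was set at 1 CPM in each library, and 12374 genes reached it. All 14 markers listed for spiny projection neurons, the main neurons of the striatum, were detected, with a median of 465 CPM and sums of 15459 and 13028 CPM. Markers of other cells were also read, and differed between the libraries. The 10 astrocyte markers, all detected, summed to 1153 CPM in replicate 1 but 3447 CPM in replicate 2, and the 10 oligodendrocyte markers to 947 and 1497 CPM. Glutamatergic neuron markers summed to 24.5 and 54.2 CPM, with 4 of 6 detected. The 8 microglia markers, all detected, ran the other way, with sums of 197 and 144 CPM. None of the markers in these 5 lists was at 0 reads in both libraries. In such bulk RNA, fewer cells of a type and less RNA per cell cannot be told apart. Nor can RNA of tagged cells be told apart from RNA of untagged cells carried through the pull-down, which was not tested.

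Voltage-gated calcium channels open when the membrane depolarises, and the calcium that enters drives transmitter release, gene expression and calcium-activated currents. The pore is a single large subunit, called alpha1, built of homologous repeats. Cav1 channels carry L-type current, Cav2 channels carry the P/Q-, N- and R-type currents, and Cav3 channels carry T-type current, which opens at lower voltages. Cav1 and Cav2 pores assemble with a cytoplasmic beta subunit and an alpha2delta subunit that promote surface expression and tune gating, whereas Cav3 pores can work without them. In spiny neurons, L-type channels near the synapse contribute to plateau depolarisations and to signalling from the membrane to the nucleus.

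The coding sequence of the pore-forming members was searched for known stretches. The stretch of the linker between the repeats I and II that binds beta subunits was searched by its conserved residues in the translated longest coding sequence of each of the 8 genes in GENCODE M21, on build GRCm38. It was found in 5, the Cav1 and Cav2 genes, and that pattern was not present in the 3 Cav3 genes. The search pattern itself required the tyrosine, tryptophan and isoleucine marked below, so a diverged site would have been missed. The 54 coding bases are printed to show the docking site shared by the genes that need Cacnb4 or a related subunit, with the codons for a conserved tyrosine, tryptophan and isoleucine in capitals.
Cacna1a (chr8:84536125-84536403, plus strand): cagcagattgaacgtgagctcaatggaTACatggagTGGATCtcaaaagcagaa
Cacna1b (chr2:24719100-24719992, minus strand): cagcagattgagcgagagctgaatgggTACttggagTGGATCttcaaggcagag
Cacna1c (chr6:118734906-118734959, minus strand): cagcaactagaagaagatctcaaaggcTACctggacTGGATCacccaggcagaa
Cacna1d (chr14:30142600-30142653, minus strand): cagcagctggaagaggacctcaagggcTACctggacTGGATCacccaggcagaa
Cacna1e (chr1:154488837-154493353, minus strand): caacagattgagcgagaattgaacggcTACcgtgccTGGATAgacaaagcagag
In Cacna1c and Cacna1d the site lay within exon 9 of the transcript, and in the others it crossed the junction of 2 exons, so that the coordinates there take in an intron. Against the Cacna1e site, 40 of the 54 bases were the same in Cacna1b, 36 in Cacna1a and 34 in each of Cacna1c and Cacna1d.

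The second stretch is the pore loop of repeat III, printed because one codon in it separates Cav3 channels from the others. Each repeat brings a single acidic residue to the filter that selects calcium. The search pattern itself required glutamate or aspartate at that position, and it found 4 such loops in each of the 8 genes. Of the 32 loops, 26 carried a glutamate codon and 6 an aspartate codon, and the 6 were repeats III and IV of Cacna1g, Cacna1h and Cacna1i. The codon of the filter residue is in capitals in the 33 bases of repeat III below.
Cacna1a (chr8:84581320-84583559, plus strand): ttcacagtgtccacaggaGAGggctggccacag
Cacna1b (chr2:24650628-24651112, minus strand): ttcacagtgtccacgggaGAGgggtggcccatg
Cacna1c (chr6:118654455-118656144, minus strand): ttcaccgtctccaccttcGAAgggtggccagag
Cacna1d (chr14:30099243-30100728, minus strand): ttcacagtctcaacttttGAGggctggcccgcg
Cacna1e (chr1:154444002-154444903, minus strand): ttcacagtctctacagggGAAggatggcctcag
Cacna1g (chr11:94426459-94426491, minus strand): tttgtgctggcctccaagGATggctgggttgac
Cacna1h (chr17:25383496-25383528, minus strand): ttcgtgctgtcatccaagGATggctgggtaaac
Cacna1i (chr15:80376789-80376821, plus strand): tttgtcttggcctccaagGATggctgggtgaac
The Cav3 windows lay within exon 24 of each transcript, and the other 5 windows crossed an exon junction. Of the 33 bases, 23 to 27 matched Cacna1e in the other Cav1 and Cav2 genes, and 14 to 16 matched in the Cav3 genes.

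Of the Cav2 genes, the R-type gene Cacna1e was far the most abundant in reads. Replicate 1 held 17878 of its reads, or 692 CPM (exact Poisson 95% interval 682 to 702), and replicate 2 held 27780, or 939 CPM (928 to 950). The mean was 816 ± 175 CPM (SD, n = 2). That mean placed it at rank 127 of all symbols and at percentile 98.97 of detected genes. The N-type gene Cacna1b, whose channel sits at many presynaptic terminals, had 105 and 139 CPM, a mean of 122 ± 24.1 CPM. Cacna1a, the P/Q-type gene whose mutations cause ataxia and hemiplegic migraine, had 58.3 and 72.0 CPM, a mean of 65.1 ± 9.68 CPM. All 3 were lower in replicate 1 than in replicate 2, with intervals that did not overlap. Cacna1e (ENSMUSG00000004110.16) spans 494 kb of chromosome 1, from 154390731 to 154884501 on the minus strand, and no other gene is annotated within that span.

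Of the L-type genes, Cacna1c was well above Cacna1d. Cacna1c, the main L-type pore of brain and heart, had 172 CPM (167 to 177) in the first library and 184 CPM (180 to 189) in the second. Its mean of 178 ± 8.60 CPM had the smallest relative spread of the 10 genes, an SD of 4.82% of the mean. Cacna1d, whose channel opens at more negative voltages and is known in spiny neurons to respond to dopamine receptor signalling, had 31.0 and 39.7 CPM, a mean of 35.3 ± 6.12 CPM. Of the reads of both genes, Cacna1d held 15.3% in replicate 1 (exact Clopper-Pearson 95% interval 14.3 to 16.3) against 17.7% in replicate 2 (16.8 to 18.6). Per kilobase of annotated exon its share was 23.2% and 26.5%, since the exons annotated for Cacna1c cover 21191 bases and those of Cacna1d 12621. Cacna1d was the lower of this pair in both libraries on both scales.

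The T-type genes, summed, stood at 65.8 CPM in replicate 1 against 83.1 CPM in replicate 2, the lowest sum of the 3 pore classes, and their order changed between the libraries. Cacna1i, the T-type gene with the slowest kinetics, had 40.1 CPM (37.7 to 42.7) in the first library and 34.2 CPM (32.1 to 36.4) in the second, a mean of 37.2 ± 4.19 CPM. Cacna1h, a T-type gene known from sensory neurons, had 20.1 CPM (18.4 to 21.9) in the first library and 41.5 CPM (39.2 to 43.9) in the second, a mean of 30.8 ± 15.2 CPM. Thus Cacna1i was the higher in replicate 1 and Cacna1h in replicate 2. Cacna1h (ENSMUSG00000024112.16) lies on chromosome 17 from 25374285 to 25433783 on the minus strand. Cacna1g, which carries the burst current of thalamic relay neurons, was the lowest of the 10 at 145 and 218 reads, or 5.61 CPM (4.74 to 6.61) and 7.37 CPM (6.43 to 8.42). Of the reads of the 3 genes, Cacna1i held 61.0% in replicate 1 (58.6 to 63.3) against 41.2% in replicate 2 (39.2 to 43.1). Cacna1h held 30.5% (28.3 to 32.7) and 49.96% (48.0 to 52.0), and Cacna1g 8.53% (7.24 to 9.96) and 8.87% (7.77 to 10.1). The intervals of the Cacna1g share overlapped, and those of Cacna1h and Cacna1i did not and lay in opposite directions.

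Of the auxiliary members, the beta subunit gene Cacnb4 was nearly as abundant in reads as Cacna1e. Cacnb4, the gene mutated in the ataxic lethargic mouse, had 21067 and 21479 reads in replicates 1 and 2. These came to 816 CPM (805 to 827) and 726 CPM (717 to 736), a mean of 771 ± 63.2 CPM. It was above Cacna1e in replicate 1 and below it in replicate 2. Of the annotated exon bases of Cacnb4, 16.0% are shared with A430018G15Rik on the opposite strand, and the strand setting of the counting is not given in the sources used here. Cacna1d shared 4.67% of its exon bases with Chdh, Cacna1a 3.81% with Gm16183 and Cacna1h 1.62% with Tpsg1, all on the opposite strand, and the other 6 members shared none. Chdh had 35 and 266 reads, and Tpsg1 had 0 in both libraries. A430018G15Rik and Gm16183 were not among the symbols counted, at least under those names. Cacnb4 (ENSMUSG00000017412.15) lies on chromosome 2 from 52428320 to 52676831 on the minus strand. Cacna2d3, an alpha2delta subunit gene of neurons, had 159 CPM (154 to 164) in the first library and 186 CPM (181 to 191) in the second, a mean of 173 ± 19.4 CPM. The order of Cacna1c and Cacna2d3 in CPM also changed between the libraries. By mean CPM the 10 genes ran from percentile 21.5 of detected genes, Cacna1g, to percentile 98.97, Cacna1e.

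**Figure D1:**
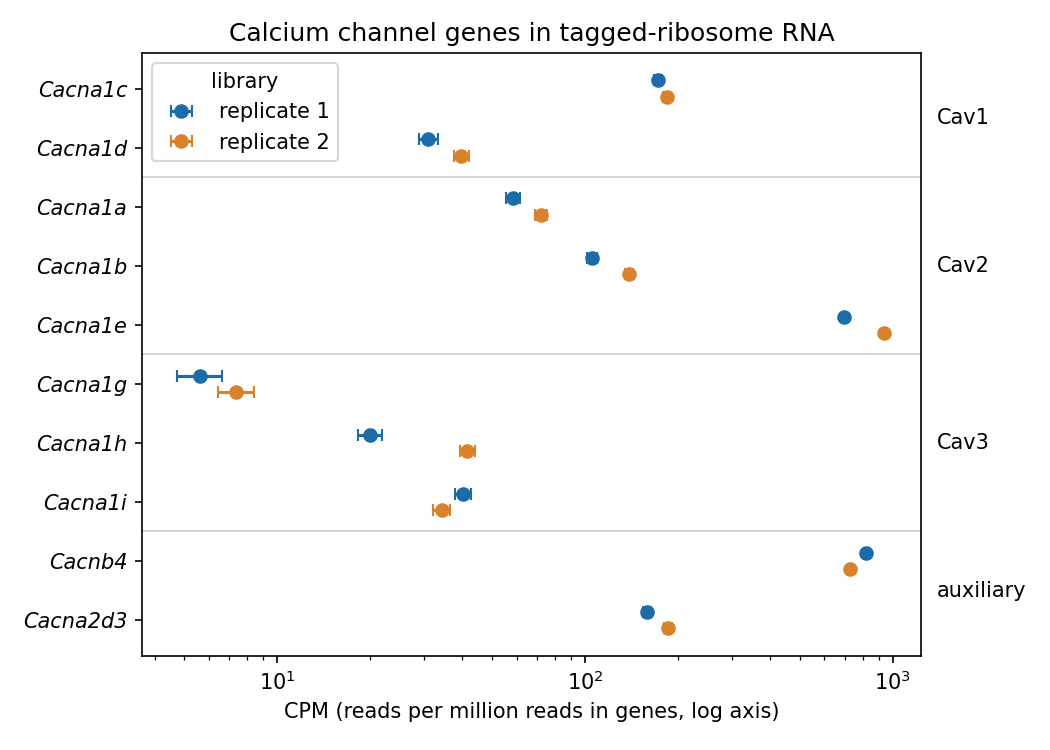
Level of each calcium channel gene in CPM on a log axis, by channel class, with 1 point for each library and bars for the exact Poisson 95% interval, which covers counting error only. Cacna1e and Cacnb4 are the highest in both libraries, Cacna1g is lowest at 5.61 and 7.37 CPM, and Cacna1h is the only gene with points about 2-fold apart.

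Longer transcripts give more reads, so the genes were compared per kilobase of annotated exon. On that scale the order of mean levels was Cacnb4, Cacna1e, Cacna2d3, Cacna1b, Cacna1c, Cacna1a, Cacna1i, Cacna1h, Cacna1d and Cacna1g. Cacnb4 stood at 91.0 CPM per kilobase in replicate 1 and 81.0 in replicate 2, a mean of 86.0 ± 7.05 CPM per kilobase (SD, n = 2). Cacna1e had 27.4 and 37.2 CPM per kilobase, a mean of 32.3 ± 6.93, and Cacna2d3 had 18.2 and 21.4, a mean of 19.8 ± 2.22. Cacnb4 was 1.43 ± 0.43 log2 units above Cacna1e, and Cacna1e 0.70 ± 0.15 above Cacna2d3. Neighbours in the order were taken as apart where the sign of their difference was the same in both libraries and its mean exceeded its SD. By that rule 2 of the 9 neighbouring pairs were not apart, Cacna1i with Cacna1h at 0.35 ± 0.91 log2 units and Cacna1h with Cacna1d at 0.089 ± 0.49. At the low end, Cacna1g lay 2.13 ± 0.027 log2 units below Cacna1d.

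The length taken for a gene changed part of this order. The annotated exons of Cacna1e cover 25228 bases, of which the longest coding sequence takes 6819, and those of Cacnb4 cover 8963 bases with 1557 coding. Per kilobase of the longest coding sequence, Cacnb4, Cacna1e and Cacna2d3 were again the 3 highest and Cacna1g the lowest. Cacnb4 stood at 524 and 466 CPM per kilobase of coding sequence and Cacna1e at 102 and 138. Cacna1c came above Cacna1b on this scale, by 0.62 ± 0.22 log2 units, whereas per kilobase of exon Cacna1b came above Cacna1c, by 0.54 ± 0.22. Which of these is the more abundant therefore depends on the length used.

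**Figure D2:**
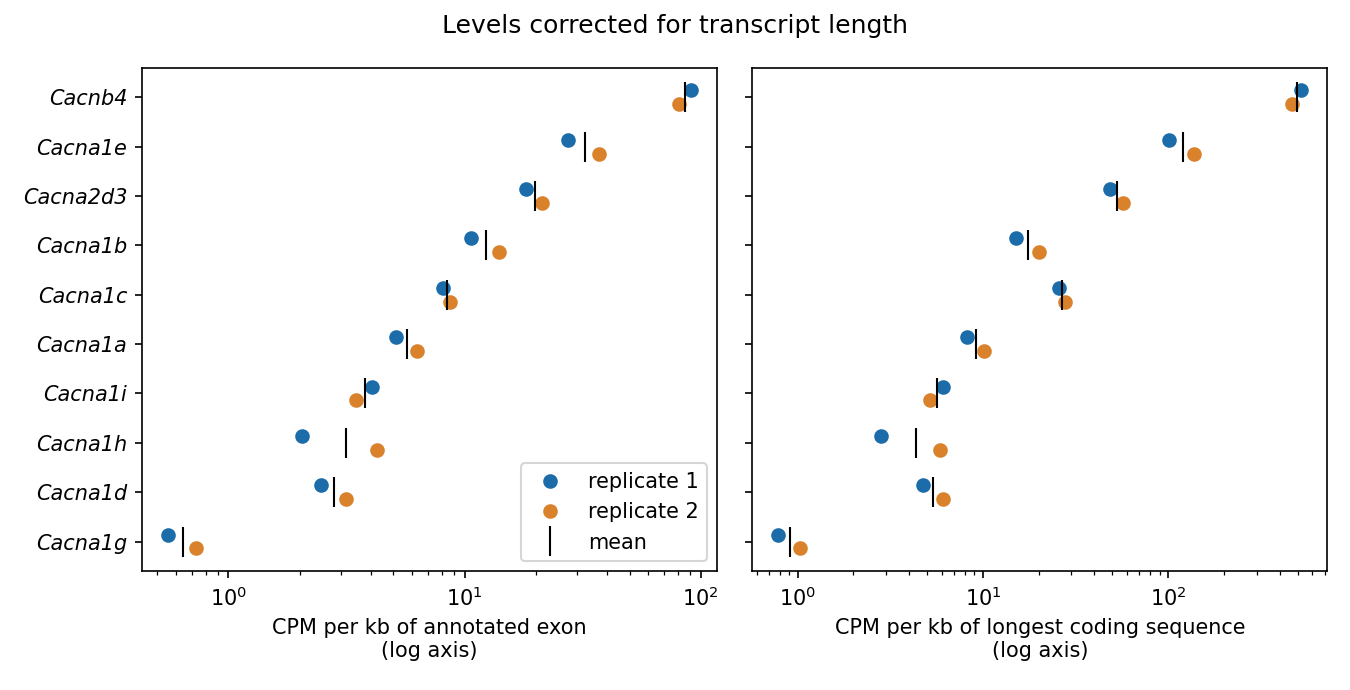
Level of each gene per kilobase of annotated exon (left) and per kilobase of the longest coding sequence (right), both on log axes, with 1 point for each library and a tick for the mean. The genes run down in order of their mean per kilobase of exon, and on the right Cacna1c lies above Cacna1b, which it follows on the left.

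Among all pore-forming genes, Cav2 genes held most of the reads. The 10 alpha1 genes of the mouse, the 8 members with Cacna1f and Cacna1s, had 29058 reads in replicate 1 and 43126 in replicate 2. Cav2 genes held 76.1% (75.6 to 76.6) and 78.9% (78.5 to 79.3) of them, Cav1 genes 18.1% (17.6 to 18.5) and 15.4% (15.04 to 15.7), and Cav3 genes 5.85% (5.58 to 6.13) and 5.70% (5.48 to 5.92). Cacna1e alone held 61.5% in replicate 1 (61.0 to 62.1) against 64.4% in replicate 2 (64.0 to 64.9). Per kilobase of exon, Cacna1e held 45.4% and 47.8% and was still the largest single share in both libraries, and the Cav3 share was 11.1% and 10.8%. The Cav1 and Cav2 shares differed between the libraries by more than counting error, and the intervals of the Cav3 share overlapped. The remaining alpha1 genes, known from retina (Cacna1f) and skeletal muscle (Cacna1s), were at or near 0. Cacna1f had 0 reads in both libraries, and a floor of 3 reads puts the limit at 0.116 CPM in the first library and 0.101 CPM in the second. Cacna1s had 0 and 6 reads.

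**Figure D3:**
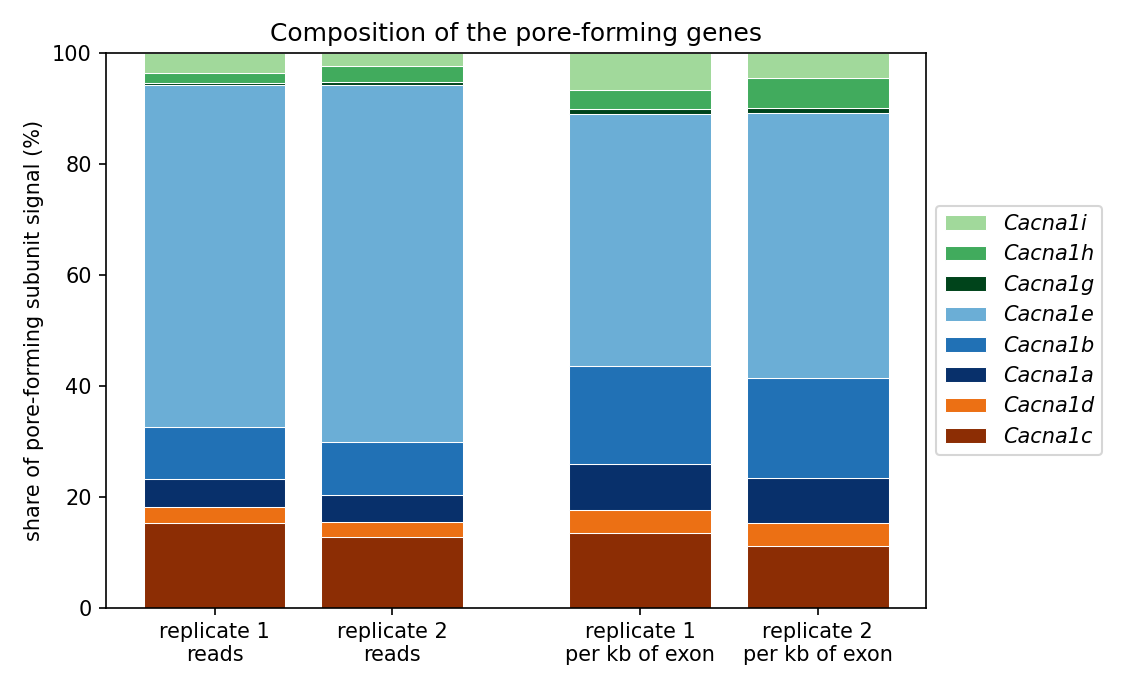
Share of each pore-forming gene in the summed signal of the alpha1 genes, in percent, for each library, in reads (left pair of bars) and per kilobase of annotated exon (right pair). Cacna1e takes 61.5% and 64.4% of reads and 45.4% and 47.8% per kilobase, and the Cacna1h and Cacna1i segments trade places between the libraries. Cacna1f and Cacna1s, at or near 0, are not drawn.

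The auxiliary members were set beside the rest of their families. Cacnb4 led the 4 beta genes with 61.0% (60.4 to 61.5) of their reads in the first library and 65.6% (65.1 to 66.1) in the second, and with 56.4% and 62.7% per kilobase of exon. Cacnb2 followed at 292 ± 48.2 CPM, then Cacnb1 at 96.2 ± 27.2 CPM and Cacnb3 at 64.0 ± 24.2 CPM (SD, n = 2). Cacna2d3 held 35.1% (34.2 to 36.0) and 35.9% (35.2 to 36.7) of the reads of the 4 alpha2delta genes. Cacna2d2, a gabapentin-binding member of the family, had 187 and 180 CPM, so it was above Cacna2d3 in replicate 1 and below it in replicate 2. Cacna2d1, the other gabapentin-binding member, had 106 and 151 CPM. Cacna2d4, known from retina, had 33 and 11 reads. Per kilobase of exon, Cacna2d2 was the higher in both libraries, at 23.5 and 22.7 CPM per kilobase against 18.2 and 21.4 for Cacna2d3, while in reads Cacna2d2 held 41.2% and 34.8%. Per kilobase of coding sequence the order changed between the libraries, with Cacna2d2 at 53.7 and 51.9 and Cacna2d3 at 48.5 and 56.9 CPM per kilobase. Per kilobase of the longest transcript Cacna2d3 was the higher in both, at 43.0 and 50.4 against 32.1 and 31.0 for Cacna2d2, so their order depends on the length used. Summed per kilobase of exon, the alpha1 genes stood at 69.2 ± 12.4, the beta genes at 145 ± 22.7 and the alpha2delta genes at 53.3 ± 4.17 CPM per kilobase.

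Between the libraries, 1 of the 10 members passed a 2-sided exact binomial test on reads with at least a 2-fold ratio, Cacna1h, which was higher in replicate 2. Of the 12374 detected genes 17.5% passed, and 8.91% passed as higher in replicate 2, so a single gene of 10 is near the background. The test takes in counting error only and compares 2 libraries of the same group, with p-values adjusted by the Benjamini-Hochberg method over all detected genes. The log2 ratio of Cacna1h, replicate 1 over replicate 2, was -1.03 (95% interval -1.18 to -0.88, adjusted p = 1.01e-44 in the exact binomial test), so the interval takes in the 2-fold limit. Corrected for a trend of the ratio on exon length it was -0.88, and 0 of 10 members were called, where 14.9% of the 11465 detected genes with a length passed. By adjusted p alone all 10 members differed between the libraries, 2 higher in replicate 1 and 8 in replicate 2. The background by that rule was 78.9% of detected genes, with 42.5% higher in replicate 1 and 36.4% higher in replicate 2.

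The other 9 members differed by less than 2-fold. The median log2 ratio of the 10 was -0.31, against 0.047 for all detected genes, and their median absolute ratio was 0.31, against 0.45. Cacna1i (0.25) and Cacnb4 (0.19) were the 2 that were higher in replicate 1. Before any correction for length, Cacna1c was the closest to equal at -0.079. Cacna1e stood at -0.42, Cacna1b at -0.38 and Cacna1g at -0.37. The ratio varied with exon length over all detected genes: the trend was at -0.46 for a gene as long as Cacna1e and at 0.11 for one as short as Cacnb3. The members are long, with a median of 10040 annotated exon bases against 4836 for detected genes. After subtraction of that trend, the median of the members was -0.095, and 4 of them lay above 0 and 6 below. The ratio of Cacna1e was then 0.034, the closest to equal of the 10, and that of Cacna1c was 0.31. All 10 astrocyte markers lay towards replicate 2, with a median log2 ratio of -1.55, and 7 were called. The 10 oligodendrocyte markers lay the same way, with a median of -0.71 and 4 called, as did the 4 detected glutamatergic markers, with a median of -0.91 and 2 called. Detected were 4 of 5 markers of oligodendrocyte precursors, 4 of 4 of cholinergic interneurons and 4 of 6 of GABAergic interneurons. All of these also lay towards replicate 2, with medians of -0.83, -0.55 and -0.48. Of the undetected GABAergic markers, Pvalb ran the other way, with 58 reads in replicate 1 and 15 in replicate 2, and Vip had 0 in both. Called were 1 oligodendrocyte precursor marker, Pdgfra, 1 cholinergic marker, Slc18a3, and 0 GABAergic markers. Towards replicate 1 lay 11 of 14 spiny neuron markers, with a median of 0.33 and Tac1 called at 1.33, and all 8 microglia markers, with a median of 0.49 and 1 called, C1qb. Of the 7 endothelial and mural markers 4 were detected, and 3 of these lay towards replicate 1, with a median of 0.14 and Pecam1 called at 1.21. The undetected Cldn5, Pdgfrb and Kcnj8 had 4, 25 and 0 reads in replicate 1 against 35, 300 and 28 in replicate 2. Summed, the list came to 25.8 CPM in replicate 1 against 39.2 CPM in replicate 2, so it had no common direction. Beside these counts of called markers, 8.6% of all detected genes were called towards replicate 1 and 8.91% towards replicate 2. The part of the listed markers in the ratios of the channel genes was not tested.

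**Figure D4:**
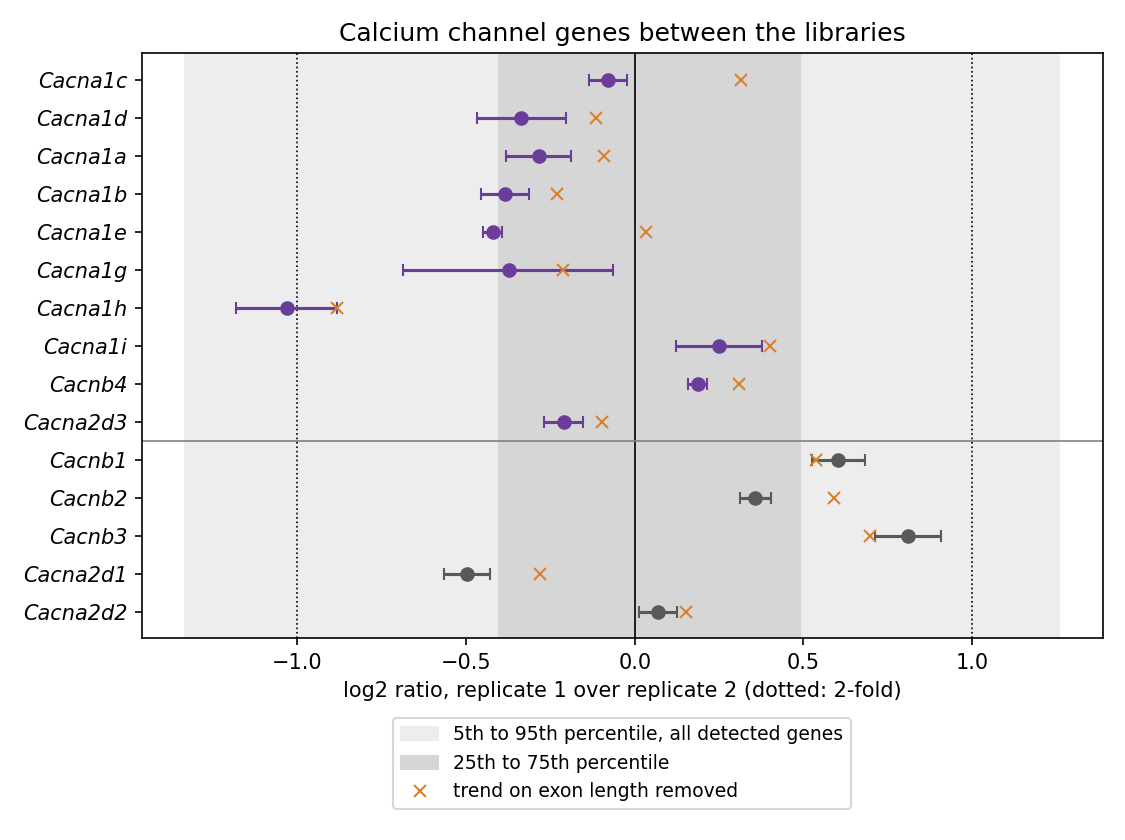
Log2 ratio of replicate 1 over replicate 2 for the 10 members (purple) and 5 other detected subunit genes (grey), with exact 95% intervals for counting error. Shading gives the spread of all detected genes and crosses give the ratio with the trend on exon length removed. Cacna1h alone lies past the dotted 2-fold line, at -1.03, and its cross at -0.88 lies inside it.

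The other calcium channel genes were taken from lists of the gene families. Of the 8 other pore-forming and auxiliary subunit genes 5 were detected and 0 were called at 2-fold in the exact binomial test, where 17.5% of detected genes were called. By adjusted p alone 4 were higher in replicate 1 and 1 in replicate 2, where 78.9% of detected genes passed. The beta genes Cacnb1, Cacnb2 and Cacnb3 had log2 ratios of 0.60, 0.36 and 0.81, the same sign as Cacnb4, and Cacna2d1 had -0.50. After subtraction of the length trend, the beta genes stood at 0.54, 0.59 and 0.70. Summed over the 4 genes, beta subunit RNA came to 1338 CPM in replicate 1 against 1108 CPM in replicate 2, and alpha1 RNA to 1125 and 1458 CPM, so in reads the larger sum was beta in replicate 1 and alpha1 in replicate 2. Per kilobase of exon, beta was the larger in both libraries, at 161 and 129 CPM per kilobase against 60.4 and 77.9 for alpha1. Of the 8 gamma subunit genes, most of which act on AMPA receptors, 6 were detected and 0 were called, led by Cacng3 at 75.8 ± 25.4 CPM and Cacng7 at 32.3 ± 2.30 CPM.

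A further list held calcium channel regulators and the related leak channel gene Nalcn. Of its 14 genes 11 were detected, and 3 were called, 2 towards replicate 1 and 1 towards replicate 2, where 8.6% and 8.91% of detected genes were called in those directions. The highest were the active zone gene Rims2, whose product ties channels to release sites, at 239 and 205 CPM, and Nalcn, a sodium leak channel distantly related to the alpha1 pores, at 113 and 150 CPM. Rem2, a small GTPase that binds beta subunits and inhibits the channels, had 29.7 and 14.4 CPM in replicates 1 and 2. Gem, of the same GTPase family, had 1.01 and 3.01 CPM. Stac, an adaptor of the family that binds L-type channels, had 6.04 and 1.83 CPM. Rem1 and Stac3, named after their values were seen, had 0 reads in both libraries.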

How the data were processed

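RNA sequencing libraries of the pulled-down fraction were analysed from the deposited counts, raw whole numbers of reads for each gene symbol in each library. The submitters' processing notes name STAR 2.0.0e, HTSeq and build mm10. Annotation, strand setting and read filters were not given in the sources used here. Lines with no gene name, 6 in each library, were removed, and held 52.5% of counted reads in replicate 1 and 46.6% in replicate 2. Of these, reads outside annotated features made up 22.8% and 31.0% of all counted reads, and reads not aligned uniquely 27.9% and 13.6%.

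The members and gene lists were chosen with earlier results of these data known. All members are described. Other subunit and regulator genes were named by fixed rule, apart from Rem1 and Stac3. The rule took every other pore-forming, beta or alpha2delta subunit, and of the gamma and regulator lists the 2 highest and any gene called. It allowed markers only beside a result they move with, and this was not kept. Markers were named after their values were seen, as the only gene called in a list or as undetected genes of 2 lists. Lengths, coordinates and coding sequence came from GENCODE M21, whose build GRCm38 is the one called mm10, matched by symbol; 92.7% of detected genes had a length. A deposited count became CPM over named genes, with 1 CPM equal to 25.8 reads in replicate 1 and 29.6 in replicate 2. Intervals are exact at 95% and, like floors of 3 reads, cover counting error only, since reads are not independent molecules.

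Libraries were compared by exact binomial tests with TMM-scaled sizes from edgeR 4.0.16, at an adjusted p below 0.05 and a 2-fold ratio, with size factors of DESeq2 1.42.0 as an alternative; other steps used Python 3.11.15, scipy 1.17.1 and statsmodels 0.14.6 (lowess, fraction 0.3). The test was run on simulated counts that held Poisson counting error only. That run does not show how the test behaves under other variation between libraries. With 1 group, no model across conditions could be fitted.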

Additional observations from a re-analysis of the deposited data

How the results depend on the processing

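The call of Cacna1h as the only member past 2-fold was the same with total reads or DESeq2 size factors as scaling, with no filter, with a minimum mean of 5 CPM and with a 1.5-fold threshold. By adjusted p alone 10 members were called, and 0 after subtraction of the length trend, an alternative chosen after seeing the data. Over all genes, 2167 of 12374 were called in the main test, 4771 at 1.5-fold, 9766 by adjusted p alone, 1710 of 11465 with the length trend removed and 5820 of 18929 without a filter. The median log2 ratio of the members, -0.31, was -0.095 with the length trend removed.

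Of the 10 members, 3 kept their place in the order per kilobase of exon when no length was used, and 6 when the longest coding sequence was used. Per kilobase of exon in place of reads, the Cav2 share was 72.7%, the Cav3 share 10.95%, the Cacna1d share of its pair 24.9%, the Cacnb4 share 59.6% and the Cacna2d3 share 37.1%, against 77.5%, 5.77%, 16.5%, 63.3% and 35.5% of reads. Per kilobase of coding sequence, the Cacnb4 share was 67.6% and the Cacna2d3 share 36.4%. Leaving out a library gives the value of the other, printed with each level, and leaves no test between libraries. No paired analysis was possible because there is only 1 group. Cacna1g, at 145 reads in replicate 1, was the member with the least depth. With the symbol Rn45s left out of the reads in genes, the mean of Cacna1c was 191 CPM against 178 CPM. No other member mean moved by more than its SD under that change.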
